A study of Mus musculus with 30 samples.

Results

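The HoxB genes of paralogue groups 1 to 9, Hoxb1 to Hoxb9, were followed as mouse embryonic stem cells (ESCs) were led towards neuromesodermal progenitors (NMPs), a posterior population from which spinal cord and paraxial mesoderm are made. The 9 genes were taken by name from a count table of 54134 rows, and all 9 passed the filter on low counts that kept 12149 genes. The dataset held 30 RNAseq libraries in 10 groups of 3, with wildtype and Nr6a1-/- cells at each of 5 stages. Both genotypes derived from the Bruce4 ESC line, which was kept on feeder cells and depleted of them before differentiation, and both received FGF2 from the start. The d2 groups had received FGF2 only, and the d2.5 and d3 groups also CHIR99021, an agonist of the Wnt pathway, for 12 h and 24 h. The d4 groups were taken 1 day after d3 and, per the study, stayed in FGF2 and CHIR99021. The d4G groups had the growth factor Gdf11 added to these for the last 24 h. Nr6a1 encodes an orphan nuclear receptor, and the Nr6a1-/- libraries came from 1 clone with CRISPR/Cas9 deletions in an internal exon on both alleles, so that genotype and clone cannot be told apart. Nothing in the labels says that the 3 libraries of a group were separate cultures, and the p-values measure the spread between these libraries, which may be technical.

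Hox genes encode homeodomain transcription factors that give cells their position along the head to tail axis. Within a cluster the genes are switched on in the order in which they lie, from group 1 onwards, a property called temporal collinearity, and Wnt signalling through Cdx factors activates the middle of the cluster in the posterior growth zone. Low group numbers pattern the hindbrain and neck, and groups 6 to 9 pattern the trunk. Gdf11 acts at the transition from trunk to tail, when the groups above 9 are activated.

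All 9 genes lie on the plus strand of chromosome 11 of GRCm38, the assembly also called mm10. By the GENCODE annotation the order along the chromosome is the reverse of the paralogue numbers, from Hoxb9 (chr11:96271457-96276595) through Hoxb8 (chr11:96281905-96285315), Hoxb7 (chr11:96286623-96290162), Hoxb6 (chr11:96292476-96301569), Hoxb5 (chr11:96303336-96306121), Hoxb4 (chr11:96318267-96321638), Hoxb3 (chr11:96323326-96347930) and Hoxb2 (chr11:96350525-96354012) to Hoxb1 (chr11:96365752-96368256). They span 96800 bp. Hoxb13, the remaining HoxB gene, lies apart from them at chr11:96194316-96197447. Antisense genes overlap 4 of the 9. Hoxb5os covers Hoxb6 and Hoxb5, and Hoxb3os overlaps Hoxb3 and Hoxb2, with exons under the last 500 bp of both of the latter. Whether counting used strand is not stated, and the values of Hoxb2, Hoxb3, Hoxb5 and Hoxb6 are uncertain to that extent.

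Promoter sequences, from 250 bases before to 50 bases after the start, were found in RefSeq (GRCm38.p6) for 3 of the 9 genes, Hoxb1, Hoxb4 and Hoxb8. They were searched on both strands for TCAAGGTCA, an extended single site bound by Nr6a1, for TTTATNG, a motif of Cdx factors, and for ATCAAAG, a motif of the Tcf/Lef factors that act downstream of Wnt. The promoter of Hoxb1, the HoxB gene with the highest level at d2.5, is shown beside that of Hoxb8. The Hoxb8 promoter alone of the 3 held a match, and motif matches are in capitals.
Hoxb1, chr11:96365508-96365807, plus strand: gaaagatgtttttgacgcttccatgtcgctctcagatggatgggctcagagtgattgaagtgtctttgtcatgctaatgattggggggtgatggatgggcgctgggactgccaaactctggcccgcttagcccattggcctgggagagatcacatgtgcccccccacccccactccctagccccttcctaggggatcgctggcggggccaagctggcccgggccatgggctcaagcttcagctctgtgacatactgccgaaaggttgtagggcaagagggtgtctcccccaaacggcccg
Hoxb8, chr11:96281655-96281954, plus strand: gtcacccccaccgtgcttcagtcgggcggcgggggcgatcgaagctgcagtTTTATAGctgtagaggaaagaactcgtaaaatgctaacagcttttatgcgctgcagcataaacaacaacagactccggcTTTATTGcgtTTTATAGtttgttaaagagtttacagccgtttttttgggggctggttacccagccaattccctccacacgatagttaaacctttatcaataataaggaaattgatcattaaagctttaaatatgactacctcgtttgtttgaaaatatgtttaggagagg
The Hoxb8 window holds TTTATNG 3 times on the plus strand, without overlap, the first bases lying at -199, -120 and -110 from the start. Of 32851 RefSeq promoters of this length, 10.9% held TTTATNG at least once, 3.73% ATCAAAG and 0.423% TCAAGGTCA. These matches describe letters in a window and are not binding sites.

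Library totals ranged from 1570714 to 3688197 counts, and a count of 0 allowed up to 0.829 to 1.91 counts per 1000000 (CPM), for counting error only. Nr6a1 counts could not check the genotype labels, since the libraries read 3′ ends and the deletions lie in an internal exon. The summed level of 5 markers of neuromesodermal cells (T, Sox2, Nkx1-2, Cdx2 and Fgf8) was 125 to 159 CPM in the 6 d2 libraries and 718 to 1086 CPM in the 6 d3 libraries. The library of d4 wildtype replicate 2 stood apart. Its 5 epiblast markers (Pou5f1, Fgf5, Dnmt3b, Otx2 and Utf1) summed to 641.6 CPM, against 90.2 and 77.7 CPM in the other two libraries of its group and 2322 to 2376 CPM in wildtype cells at d2, with Dnmt3b at 516 CPM against 71.1 and 68.7 CPM. Results that use the d4 wildtype group were therefore also computed without this library. By the labels, each of the 6 d4 libraries carries a sample index that another library also carries, 4 of them one of d4G and 2 one of d3, while the 24 libraries of the other stages carry 24 different ones. The study's library structure holds an index added at poly(A) priming and a further i7 index, and the labels give 1 index for each library. Libraries that share this index could have been read in 1 pool only if the other index differed. The labels name no pools. In the step from d3 to d4 and in the response to Gdf11, a difference between pools, if there were any, and the effect cannot be told apart. Of 8 feeder markers, Lum was at 0 in 9 of the 10 groups, and all 8 together summed to 19.6 to 76.5 CPM.

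Within 12 h of Wnt activation the group 1 end of the cluster was on and the rest was close to the detection limit. Hoxb1, which gives rhombomere 4 of the hindbrain its identity, stood at 4.81, 2.12 and 1.03 CPM in the 3 wildtype libraries at d2 and at 67.2, 62.0 and 66.8 CPM at d2.5. The Nr6a1-/- libraries had 2.35, 1.50 and 2.28 CPM at d2 and 101, 104 and 114 CPM at d2.5. No d2 library reached any d2.5 library in either genotype. The ratio of pooled counts was 25.7 in wildtype cells (95% counting interval 16.1 to 43.8) and 52.7 in Nr6a1-/- cells (31.8 to 94.5). With onset set as the first stage at which all 3 libraries reached 5 CPM, Hoxb1 was the single HoxB gene with onset at d2.5 in both genotypes. Hoxb4, Hoxb5, Hoxb6, Hoxb7, Hoxb8 and Hoxb9 followed at d3 in both genotypes, 6 genes in a row that were not separated by these sampling times. Hoxb2 reached 5 CPM in all 3 libraries at d4 in wildtype and at d3 in Nr6a1-/- cells, and Hoxb3 at d4G and at d4. Both genes had low levels throughout, the highest group means being 25.4 CPM for Hoxb2 and 11.6 CPM for Hoxb3. Wildtype replicate 1 at d3 kept Hoxb2 below the limit, at 4.34 CPM. At a limit of 2 CPM Hoxb2 had onset at d2.5 in both genotypes, so that its later onset depended on the limit. Hoxb3 had onset at d3 at 2 CPM, after Hoxb4 in wildtype cells (d2.5) and together with it in Nr6a1-/- cells (d3). In wildtype cells Hoxb3 thus came after Hoxb4 at both limits. A gene of low level reaches a fixed limit late, so that level and order cannot be told apart here.

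**Figure D1:**
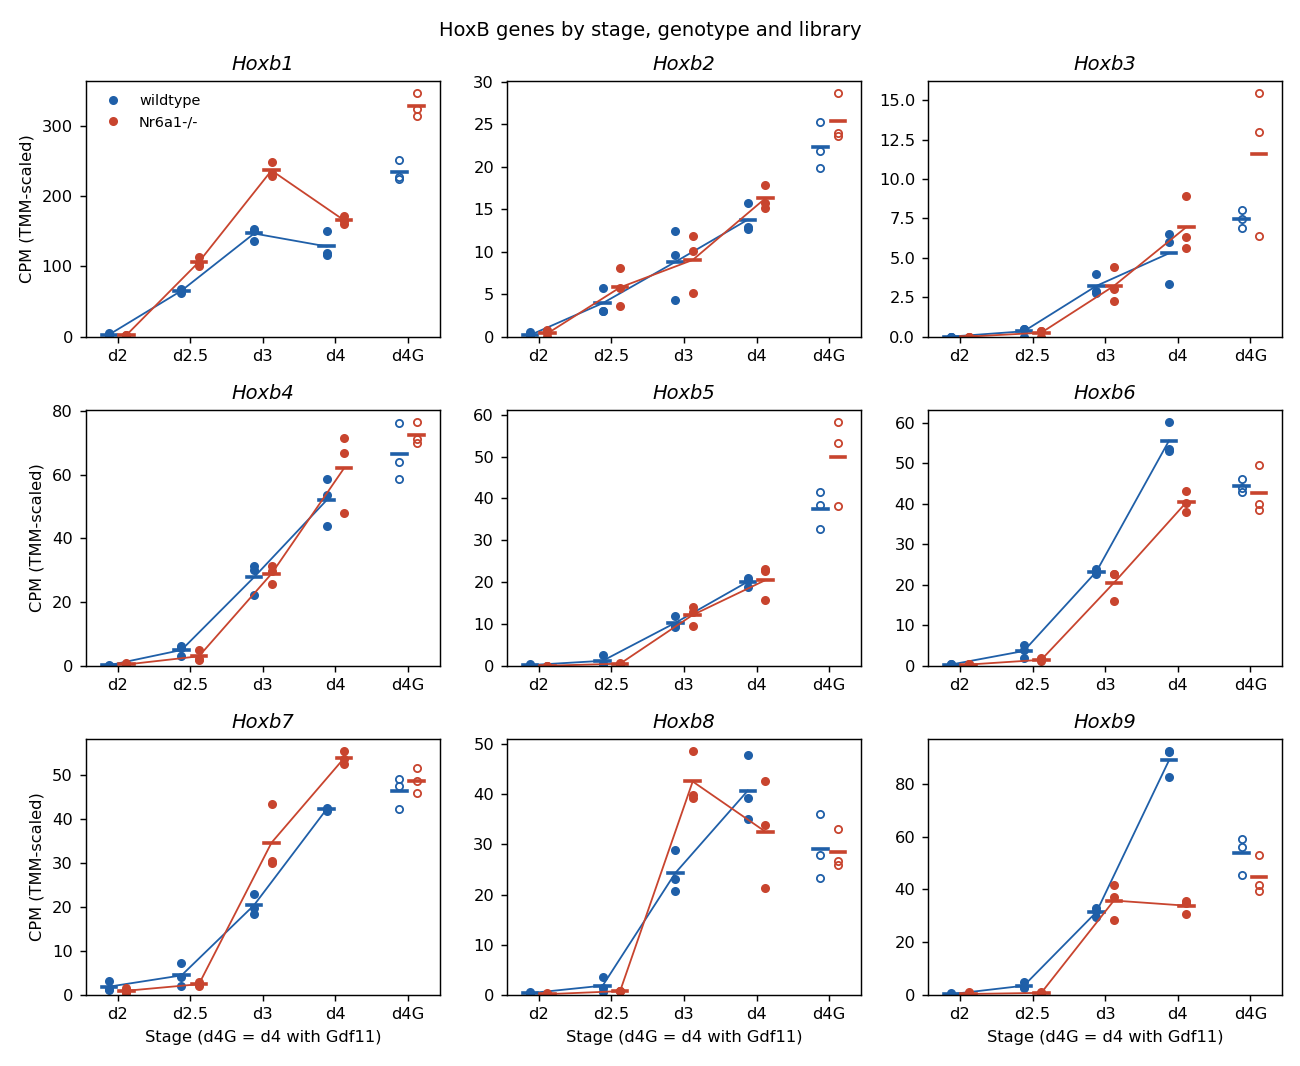
Level of each HoxB gene in each library (CPM scaled by TMM factors, linear axes that start at 0 and differ between panels), by stage and genotype, with filled points for libraries without Gdf11, open points for d4G, short dashes for group means and lines joining the means of d2 to d4. Hoxb1 is already at 62.0 to 114 CPM at d2.5, where the other genes lie far lower, and Hoxb9 separates the genotypes at d4. There, wildtype libraries lie at 82.6 to 92.4 CPM and Nr6a1-/- libraries at 30.8 to 35.8 CPM.

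At d2 the 9 genes together had 39 counts over the 3 wildtype libraries and 33 over the 3 Nr6a1-/- libraries. Of these, 18 and 15 were Hoxb1 counts and 12 and 7 were Hoxb7 counts, and no other gene had more than 3 in a group. A lower limit for onset of 2 CPM changed the picture at d2.5. At this limit Hoxb1, Hoxb2, Hoxb4, Hoxb6, Hoxb7 and Hoxb9 had onset at d2.5 in wildtype cells, 6 genes, whereas in Nr6a1-/- cells it was Hoxb1 and Hoxb2 alone, and the remaining 7 genes followed at d3. These wildtype levels rested on few reads. Hoxb9, which shapes the thoracic ribs, had 10, 5 and 6 counts in the wildtype libraries at d2.5 and 2, 1 and 3 counts in the Nr6a1-/- libraries, and Hoxb6, expressed in trunk and lateral mesoderm, had 8, 10 and 4 against 4, 3 and 5.

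From d2 to d2.5, 6 of the 9 genes rose in wildtype cells (edgeR quasi-likelihood test, Benjamini-Hochberg FDR below 0.05 over 12149 genes, as throughout), where 13.3% of all tested genes were called higher. Besides Hoxb1 these were Hoxb2, Hoxb4, Hoxb6, Hoxb7 and Hoxb9. In Nr6a1-/- cells 4 rose, Hoxb1, Hoxb2, Hoxb4 and Hoxb6, against 12.9% of all genes. Several of these calls were lost when 1 library was left out or a setting was changed. Without a filter Hoxb7 was not called in wildtype cells (1.36, FDR = 0.0512), while Hoxb8 was (2.48, FDR = 0.0494). Hoxb7 was also lost with all libraries thinned to the smallest total (1.52, FDR = 0.0925). Hoxb6 was lost in Nr6a1-/- cells by DESeq2 (2.41, FDR = 0.110), without a filter (2.24, FDR = 0.0846) and with thinned libraries (1.59, FDR = 0.244). Hoxb7 was not called in wildtype cells without d2 replicate 1 (1.22, FDR = 0.0776) or 3 (1.03, FDR = 0.151) or without d2.5 replicate 1 (0.82, FDR = 0.335). Hoxb6 was not called in Nr6a1-/- cells without d2 replicate 1, 2 or 3 or d2.5 replicate 1 or 3 (1.66 to 2.63, FDR = 0.0511 to 0.184), nor Hoxb4 without d2.5 replicate 1 (2.11, FDR = 0.0546). Conversely, Hoxb5 was called in wildtype cells without d2 replicate 1 (4.54, FDR = 0.0352) or d2.5 replicate 1 or 2 (3.03 and 2.97, FDR = 0.0465 and 0.0492), and Hoxb8 without d2.5 replicate 2 (2.90, FDR = 0.0270). The median change of the 9 genes was 3.40 on the log2 scale in wildtype and 2.5 in Nr6a1-/- cells, with all tested genes at 0.01 in each. The change itself differed between genotypes for 0 of the 9 genes by edgeR and by DESeq2, with 1 gene, Hoxb1, at an unadjusted p below 0.05 (0.043, adjusted p = 0.388), and 0.609% of all genes were called.

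More HoxB genes were called from d2.5 to d3 than from d2 to d2.5, a step that rested on few counts. In wildtype cells Hoxb3, Hoxb5 and Hoxb8, not called in that first step, had 2, 7 and 11 counts at d2.5. The median log2 change of the 9 genes from d2.5 to d3 was 2.66 in wildtype and 3.77 in Nr6a1-/- cells. In the first step these medians were 3.40 and 2.5. In wildtype cells all 9 genes rose, against 5.91% of all tested genes called higher, and in Nr6a1-/- cells 8 did, against 7.43%, Hoxb2 being the exception (log2 fold change 0.65, SE 0.326, edgeR FDR = 0.189). In wildtype cells Hoxb2 rose by 1.15 (FDR = 0.0482), a call lost without d2.5 wildtype replicate 2 or 3 or d3 wildtype replicate 2 or 3 (0.86 to 1.09, FDR = 0.134 to 0.249). Hoxb8, which acts in trunk patterning and in blood progenitors, went from 1.43, 0.51 and 3.54 CPM to 29.0, 20.7 and 23.2 CPM in wildtype cells, and from 0.77, 0.70 and 0.72 CPM to 48.6, 39.3 and 39.8 CPM in Nr6a1-/- cells. Every d3 library lay above every d2.5 library, and the pooled counts rose 13.3-fold (interval 7.23 to 27.1) and 58.6-fold (26.6 to 161). Hoxb9 went from 4.76, 2.54 and 3.04 CPM to 32.8, 29.5 and 32.0 CPM in wildtype cells, and from 0.77, 0.35 and 1.07 CPM to 28.5, 37.2 and 41.7 CPM in Nr6a1-/- cells, rises of 9.05-fold (5.77 to 14.9) and 49.4-fold (22.4 to 136). For Hoxb9 the steeper rise in Nr6a1-/- cells passed the test of the difference itself (2.37 on the log2 scale, SE 0.605, edgeR FDR = 0.0491), where 0.815% of all genes were called. This call was lost when any 1 of 10 of the 12 libraries was left out (2.03 to 2.75, FDR = 0.0586 to 0.211), and held without d2.5 wildtype replicate 3 or d3 Nr6a1-/- replicate 1. Without d2.5 wildtype replicate 3 the difference of Hoxb7 was called as well (1.96, FDR = 0.0117). Fitted log2 changes in this step were 1.17 and 1.15 for Hoxb1 in wildtype and Nr6a1-/- cells and 3.70 and 5.77 for Hoxb8, the latter from 11 and 6 counts at d2.5.

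From d3 to d4, without Gdf11, the genotypes parted at the group 9 end. In wildtype cells 6 genes rose, Hoxb4 to Hoxb9, against 9.77% of all tested genes called higher, by 0.74 (Hoxb8) to 1.50 (Hoxb9) on the log2 scale. The Hoxb8 call was lost without d3 wildtype replicate 2 (0.63, FDR = 0.0524) and with all libraries thinned to the smallest total (0.49, FDR = 0.151). In Nr6a1-/- cells 7 genes changed, against 25.9% of all genes called in either direction. Hoxb2 to Hoxb7 rose, by 0.64 (Hoxb7) to 1.11 (Hoxb3), and Hoxb1 fell by 0.52 (edgeR FDR = 1.84e-04). The calls of Hoxb2, Hoxb3 and Hoxb5 were all lost without d3 Nr6a1-/- replicate 2 (0.55, 1.06 and 0.58, FDR = 0.182, 0.0880 and 0.0895), d4 replicate 2 (0.74, 1.17 and 0.65, FDR = 0.0911, 0.0517 and 0.0659) or d4 replicate 3 (0.84, 0.88 and 0.64, FDR = 0.0548, 0.175 and 0.0785), and that of Hoxb3 also without d3 replicate 3 (0.88, FDR = 0.146). With thinned libraries Hoxb2, Hoxb3 and Hoxb7 lost theirs (0.46, 1.09 and 0.48, FDR = 0.272, 0.0870 and 0.0728), and Hoxb3 also by DESeq2 (1.11, FDR = 0.0766) and without a filter (1.11, FDR = 0.0628). Hoxb8 and Hoxb9 were not called in Nr6a1-/- cells, with log2 fold changes of -0.39 (95% interval -0.78 to 0.01) and -0.09 (-0.43 to 0.26). Without d4 Nr6a1-/- replicate 3, Hoxb8 was called lower (-0.64, FDR = 0.0307).

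Hoxb9 stood at 92.4, 82.6 and 92.2 CPM in the 3 wildtype libraries at d4 and at 30.8, 35.8 and 34.9 CPM in the Nr6a1-/- libraries, while at d3 the genotypes overlapped at 29.5 to 32.8 and 28.5 to 41.7 CPM. The step from d3 to d4 was 1.58 lower on the log2 scale in Nr6a1-/- cells (SE 0.230, edgeR FDR = 1.27e-05), and the same was found without d4 wildtype replicate 2 (-1.66, FDR = 1.34e-05). At d4 Hoxb8 had 48.0, 39.2 and 35.1 CPM in wildtype and 21.2, 33.9 and 42.6 CPM in Nr6a1-/- libraries, ranges that overlap. Its step was 1.12 lower in Nr6a1-/- cells (SE 0.281, edgeR FDR = 0.0120), and 1.17 lower without d4 wildtype replicate 2 (-1.17, FDR = 0.0164). These were 2 of the 9 genes, against 5.72% of all genes called. For Hoxb8 the difference combined a higher level at d3 and a lower mean level at d4, and thinning all libraries to the total of the smallest ended the call (-0.87, FDR = 0.117).

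**Figure D2:**
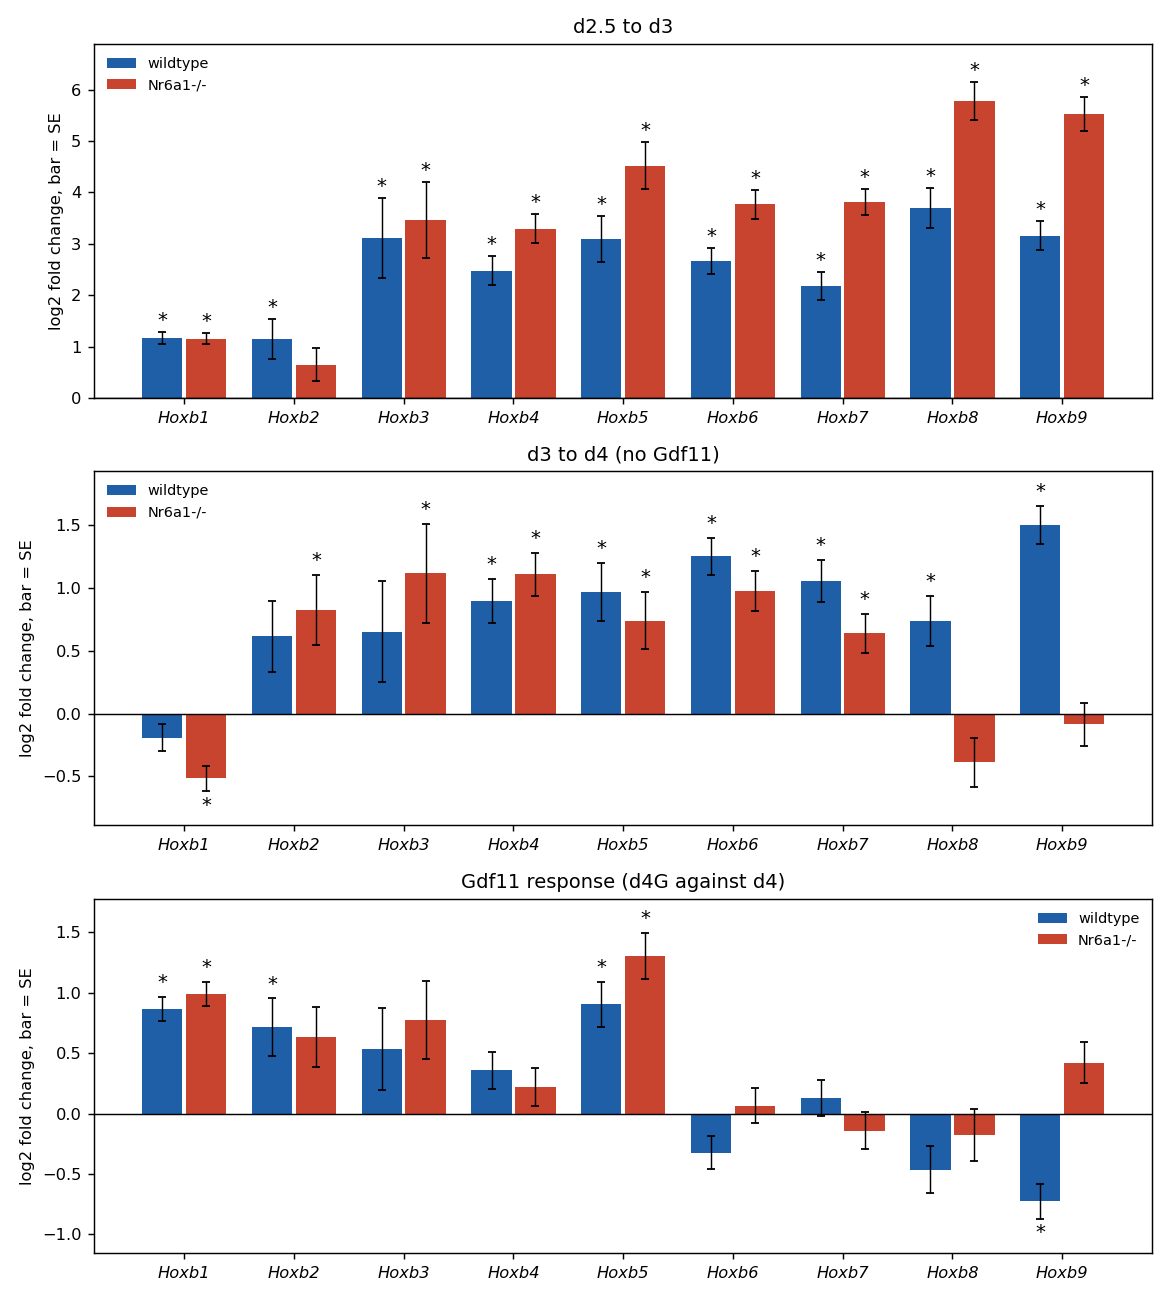
Change of each HoxB gene from d2.5 to d3, from d3 to d4 without Gdf11 and from d4 to d4G in each genotype, as edgeR log2 fold changes (bars) with SE (lines), where a star marks an FDR below 0.05. The d2.5 to d3 panel shows rises along the whole cluster, the d3 to d4 panel shows Hoxb9 at 1.50 in wildtype and -0.09 in Nr6a1-/- cells, and in the Gdf11 panel Hoxb1 to Hoxb5 have positive values in both genotypes.

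Set side by side at each stage, the genotypes differed in Hoxb1 from d2.5 onwards, in Hoxb9 at d2.5 and d4, and in Hoxb6, Hoxb7 and Hoxb8 at 1 stage each. At d2, 0 of the 9 genes differed by edgeR or by DESeq2, none at an unadjusted p below 0.05, against 4.07% of all genes called. At d2.5 Hoxb1 was higher and Hoxb9 lower in Nr6a1-/- cells, 2 of 9 genes against 6.45% of all genes. Hoxb1 was higher by 0.70 (SE 0.117, edgeR FDR = 9.97e-05), with all 3 Nr6a1-/- libraries above all 3 wildtype libraries. Hoxb9 was lower by 2.18 (SE 0.580, edgeR FDR = 0.0161), a ratio of pooled counts of 0.209 (interval 0.0690 to 0.536) from 6 counts against 21, and this call was lost without d2.5 wildtype replicate 1 (-1.87, FDR = 0.128) or Nr6a1-/- replicate 2 (-1.85, FDR = 0.0825). The log2 fold changes of Hoxb3 to Hoxb8 at d2.5 all lay below 0, from -1.29 (Hoxb6) to -0.38 (Hoxb3), with FDR values of 0.0948 and above. Hoxb6 was called without d2.5 wildtype replicate 3 (-1.57, FDR = 0.0433). The median of the 9 genes was -0.87 against 0.00 for all tested genes.

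At d3 Hoxb1, Hoxb7 and Hoxb8 were higher in Nr6a1-/- cells, 3 of 9 genes against 10.8% of all genes. Hoxb1 stood at 137, 153 and 150 CPM in wildtype and 228, 248 and 233 CPM in Nr6a1-/- libraries, a difference of 0.69 (SE 0.103, edgeR FDR = 9.74e-06). Hoxb7, a gene of the trunk mesoderm and the early ureteric bud, stood at 19.8, 23.0 and 18.4 CPM against 43.4, 29.9 and 30.5 CPM (0.76, SE 0.176, FDR = 0.00307). Hoxb8 differed by 0.81 (SE 0.204, FDR = 0.00663). In all 3 genes every Nr6a1-/- library lay above every wildtype library. For Hoxb6, which was not called (FDR = 0.573), every Nr6a1-/- library lay below every wildtype library. The share of all genes without overlap was not computed at any stage. Hoxb7 was no longer called without d3 Nr6a1-/- replicate 1 (0.56, FDR = 0.0581). Hoxb4, Hoxb6 and Hoxb9 were not called at this stage, with 95% intervals of the log2 fold change of -0.34 to 0.44, -0.53 to 0.16 and -0.16 to 0.54.

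At d4, 3 of the 9 genes differed, against 18.9% of all genes, a share that gives the number of genes little weight. Hoxb9 was lower in Nr6a1-/- cells by 1.39 (SE 0.152, edgeR FDR = 5.90e-09), and by 1.46 without d4 wildtype replicate 2 (-1.46, FDR = 1.63e-08), a ratio of pooled counts of 0.382 (interval 0.328 to 0.443). Hoxb6 was lower by 0.46 (SE 0.137, FDR = 0.0157), at 60.2, 53.6 and 53.1 CPM in wildtype and 40.3, 43.1 and 37.9 CPM in Nr6a1-/- libraries. Hoxb1 was higher by 0.36 (SE 0.104, FDR = 0.0115), at 116, 118 and 150 CPM against 165, 171 and 160 CPM. The libraries of the genotypes did not overlap for any of the 3. The same held for Hoxb7, which was not called (0.35, FDR = 0.0925), at 41.85 to 42.55 CPM in wildtype and 52.4 to 55.4 CPM in Nr6a1-/- libraries. The share of all genes without overlap was not computed. The Hoxb1 call was lost under 5 of 13 alternatives. These included leaving out d4 wildtype replicate 2 (0.29, FDR = 0.0935), thinned libraries (0.33, FDR = 0.0527) and only the compared groups in the fit (0.35, FDR = 0.0749). Both the Hoxb1 and the Hoxb6 call were lost without d4 wildtype replicate 1 (0.30, FDR = 0.0746, and -0.41, FDR = 0.0623). The Hoxb6 call was also lost without d4 Nr6a1-/- replicate 3 (-0.41, FDR = 0.0792), and the Hoxb1 call without d4 Nr6a1-/- replicate 2 (0.33, FDR = 0.0535). At d4G Hoxb1 alone differed, 1 of 9 genes against 7.9% of all genes, at 225, 227 and 251 CPM in wildtype and 314, 324 and 346 CPM in Nr6a1-/- libraries (0.49, SE 0.0994, FDR = 8.30e-04). The interval for Hoxb9 at d4G ran from -0.57 to 0.08, with 56.3, 59.3 and 45.5 CPM in wildtype and 41.8, 39.5 and 53.2 CPM in Nr6a1-/- libraries.

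**Figure D3:**
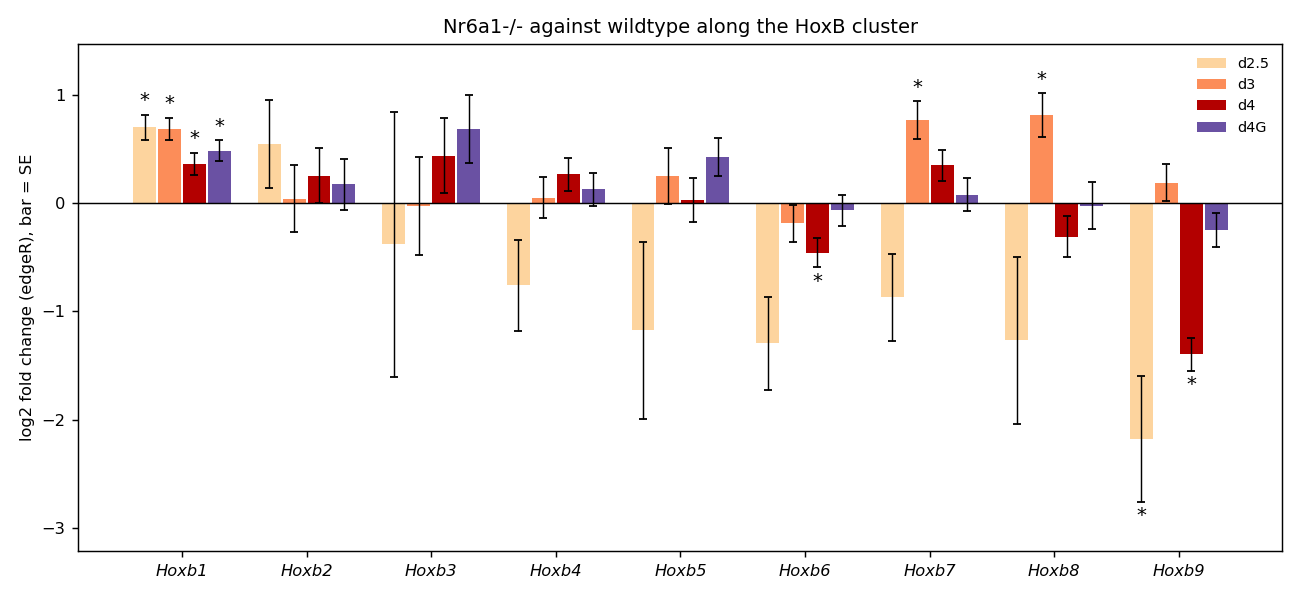
Difference between Nr6a1-/- and wildtype cells for each HoxB gene at d2.5, d3, d4 and d4G, as edgeR log2 fold changes (bars) with SE (lines), where a star marks an FDR below 0.05. Hoxb1 is higher in Nr6a1-/- cells at all 4 stages, by 0.36 to 0.70, and Hoxb9 is lower at d2.5 and d4, by 2.18 and 1.39.

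Markers of other cell types moved with genotype in the same libraries. At d4 the 5 presomitic mesoderm markers (Tbx6, Msgn1, Dll1, Dll3 and Hes7) summed to 380 to 474 CPM for wildtype and 654 to 715 CPM for Nr6a1-/- libraries, and 3 of the 4 that were tested were higher. The sum of 5 neural markers (Sox1, Pax6, Pax3, Irx3 and Olig2) was 24.9 to 34.9 CPM against 3.03 to 4.35 CPM, with 4 of 5 lower and Olig2 at 0 in all 3 Nr6a1-/- libraries. Of 4 endoderm markers (Sox17, Foxa2, Cer1 and Gsc), Cer1 was at 0 in all 10 groups, and the sum at d4 was 34.3 to 40.5 CPM for wildtype and 2.13 to 9.19 CPM for Nr6a1-/- libraries. Of the 3 endoderm markers tested, Sox17 and Foxa2 were lower at d4, and Gsc, at 0.906 and 1.99 CPM, was not called (0.96, FDR = 0.273). Most of the wildtype sum was Sox17, at 30.8 CPM. At d2.5 the neural sum was 25.4 to 31.9 CPM in wildtype libraries and 11.5 to 16.1 CPM in Nr6a1-/- libraries. No neural marker was called there, with FDR values of 0.0833 and above. The endoderm sum at d2.5 was 12.4 to 20.2 and 3.93 to 4.99 CPM, with Gsc higher (2.49, FDR = 0.0122) and Sox17 and Foxa2 lower. The epiblast sum was 617 to 643 and 760 to 805 CPM, most of it Dnmt3b at 453 and 613 CPM (FDR = 0.491). Of the epiblast markers Pou5f1 alone was called, higher (0.82, FDR = 0.0264), and Utf1 went the other way, at 160 and 131 CPM. The neuromesodermal sum at d2.5 was 470 to 489 CPM in wildtype and 587 to 621 CPM in Nr6a1-/- libraries, with Nkx1-2 and Cdx2 higher. At d3 this sum was 718 to 759 against 940 to 1086 CPM, with T and Nkx1-2 higher and Fgf8 lower. At d4 its ranges overlapped, at 366 to 395 and 385 to 522 CPM, with T and Nkx1-2 higher and Fgf8 lower. At d3 the presomitic sum was 91.6 to 111 CPM against 147 to 184 CPM (3 of 4 higher) and the neural sum 18.3 to 18.9 against 6.83 to 10.4 CPM (3 of 5 lower). The endoderm sum at d3 was 24.1 to 27.2 against 2.98 to 5.22 CPM, with Sox17 alone called, lower. The feeder sum at d3 was 50.2 to 56.4 against 64.6 to 76.5 CPM (1 higher and 1 lower of 5 tested). At d4G the presomitic sum was 206 to 235 CPM against 332 to 375 CPM (2 of 4 higher), the neural sum 14.8 to 29.8 against 9.14 to 11.5 CPM (1 of 5 lower) and the neuromesodermal sum 281 to 296 against 171 to 185 CPM (4 of 5 lower). Gsc was again higher (1.88, FDR = 5.24e-05), and the other two endoderm genes tested were lower. The part of these markers in the differences of the HoxB genes was not tested, and in bulk samples fewer cells that express a gene and less RNA per cell cannot be told apart.

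With Gdf11 for the last 24 h Hoxb1 and Hoxb5 rose in both genotypes and Hoxb2 in wildtype cells, and of the trunk groups Hoxb9 fell in wildtype cells. In wildtype cells 4 of the 9 genes changed, against 28.8% of all tested genes, so that this number is no result about the cluster. Hoxb1 rose by 0.87 (SE 0.102, edgeR FDR = 3.30e-08), with all d4G libraries above all d4 libraries. Hoxb5, which acts in neck patterning and in gut neural crest, rose from 20.5, 18.8 and 21.0 CPM to 32.6, 41.4 and 38.4 CPM (0.90, SE 0.184, FDR = 2.88e-04). Hoxb2, a hindbrain gene regulated together with Hoxb1 in rhombomere 4, rose by 0.71 (FDR = 0.0225), a call that was lost without d4 wildtype replicate 2 (0.65, FDR = 0.0798) or 3 (0.67, FDR = 0.0677) or d4G wildtype replicate 3 (0.62, FDR = 0.0987). Hoxb9 fell by 0.73 (SE 0.142, FDR = 1.58e-04), to 56.3, 59.3 and 45.5 CPM from the d4 levels of 82.6 to 92.4 CPM, and by 0.79 without d4 wildtype replicate 2 (-0.79, FDR = 2.56e-04). Hoxb6 and Hoxb8 had log2 fold changes of -0.32 (95% interval -0.60 to -0.05, FDR = 0.0687) and -0.46 (-0.86 to -0.07, FDR = 0.0710), and Hoxb7 one of 0.13 (-0.17 to 0.43). Hoxb8 was called lower without d4 wildtype replicate 3 (-0.57, FDR = 0.0432) or d4G wildtype replicate 2 (-0.64, FDR = 0.0331), and Hoxb6 with only the d4 and d4G wildtype groups in the fit (-0.34, FDR = 0.0328). Hoxb4 (0.36, FDR = 0.0782) was called with no normalization factors (0.45, FDR = 0.0226).

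In Nr6a1-/- cells 2 genes rose with Gdf11, Hoxb1 by 0.99 (SE 0.102, edgeR FDR = 1.46e-09) and Hoxb5 by 1.30 (SE 0.189, FDR = 2.69e-06), against 18% of all genes called. Hoxb5 went from 15.6, 22.7 and 23.0 CPM to 58.2, 38.2 and 53.2 CPM. Hoxb9 did not pass the threshold, with a log2 fold change of 0.42 (95% interval 0.08 to 0.77, FDR = 0.0808), but did with no normalization factors (0.49, FDR = 0.0478). Hoxb2 (0.63, FDR = 0.0695) was called with no normalization factors (0.70, FDR = 0.0448), with thinned libraries (0.78, FDR = 0.0231) and with only the compared groups (0.64, FDR = 0.0397), and Hoxb3 (0.78, FDR = 0.0924) without d4G Nr6a1-/- replicate 2 (1.03, FDR = 0.0251). The response of Hoxb9 differed between genotypes by 1.15 (SE 0.221, edgeR FDR = 0.00127), and by 1.21 without d4 wildtype replicate 2 (FDR = 0.00119), 1 of 9 genes against 2.66% of all genes. This difference, the difference at d4 and the difference of the step from d3 to d4 share the d4 libraries. For the other 8 genes the difference in response lay between -0.27 (Hoxb7) and 0.40 (Hoxb5) with FDR values of 0.360 and above. The widest of their intervals was that of Hoxb3, from -0.72 to 1.21, and the narrowest that of Hoxb1, from -0.17 to 0.41.

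Markers also moved with Gdf11. The presomitic sum went from 380 to 474 CPM at d4 to 206 to 235 CPM at d4G in wildtype libraries, and from 654 to 715 CPM to 332 to 375 CPM in Nr6a1-/- libraries, with 3 of the 4 tested markers lower in each. The neuromesodermal sum went from 366 to 395 CPM to 281 to 296 CPM (3 of 5 lower, 1 higher) and from 385 to 522 CPM to 171 to 185 CPM (4 of 5 lower). Their part in the Gdf11 values of the HoxB genes was not tested.

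The order of the 10 group means differed between the ends of the cluster. Hoxb1 to Hoxb5 each had their highest mean in d4G Nr6a1-/- cells, with Hoxb1 at 328 ± 16.5 CPM (SD, n = 3), apart from every other group. For Hoxb2 to Hoxb5 the d4G groups of both genotypes overlapped. Hoxb6 and Hoxb9 were highest in d4 wildtype cells, at 55.6 ± 3.93 and 89.1 ± 5.59 CPM, with no other group reaching either. Hoxb7 was highest in d4 Nr6a1-/- cells, at 53.8 ± 1.49 CPM, and Hoxb8 in d3 Nr6a1-/- cells, at 42.6 ± 5.21 CPM, the latter overlapping d4 wildtype cells at 40.8 ± 6.55 CPM. For Hoxb8 each group overlapped the next in this order down to d3 wildtype cells, at 24.3 ± 4.23 CPM. Hoxb3 had its highest mean at 11.6 ± 4.69 CPM. It had 0 counts in all 6 libraries at d2.

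The composition of HoxB transcripts was described by the share of each gene in the summed counts of the 9 genes, read as a change of the same gene between groups because 3′ end counts were not scaled by length. At d2.5 Hoxb1 took 73.6% ± 3.61 of HoxB counts in wildtype and 87.7% ± 1.97 in Nr6a1-/- libraries (SD, n = 3). At d4 its share was 28.6% ± 3.20 against 38.3% ± 2.07, and with Gdf11 43.3% ± 1.81 against 50.3% ± 1.16. The share of Hoxb9 at d4 was 19.9% ± 0.392 in wildtype and 7.83% ± 0.452 in Nr6a1-/- libraries, and at d4G 9.95% ± 1.55 and 6.85% ± 0.789. Weighted by counts, the mean paralogue number at d2.5 was 2.22 ± 0.169 for wildtype and 1.41 ± 0.0450 for Nr6a1-/- libraries. At d3 these means were 3.70 ± 0.176 and 3.47 ± 0.0877, at d4 5.01 ± 0.198 and 4.06 ± 0.145, and for d4G 3.81 ± 0.192 and 3.34 ± 0.0595. Without d4 wildtype replicate 2 the d4 wildtype mean was 4.98. The mean paralogue number was lower in all 3 Nr6a1-/- libraries than in all 3 wildtype libraries at each of these 4 stages, and Gdf11 libraries lay below d4 libraries of their genotype. Hoxb1 held the largest share in each of these groups, from 28.6% to 87.7%, so that its level weighs heavily in this mean. A lower mean therefore does not show that all genes of high number were lower. At d3 Hoxb7 and Hoxb8 were called higher in Nr6a1-/- cells. The summed level of the 9 genes went from 296 ± 6.45 CPM (wildtype) and 423 ± 4.68 CPM (Nr6a1-/-) at d3 to 447 ± 29.1 and 432 ± 14.3 CPM at d4 and 541 ± 20.5 and 652 ± 30.1 CPM at d4G.

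**Figure D4:**
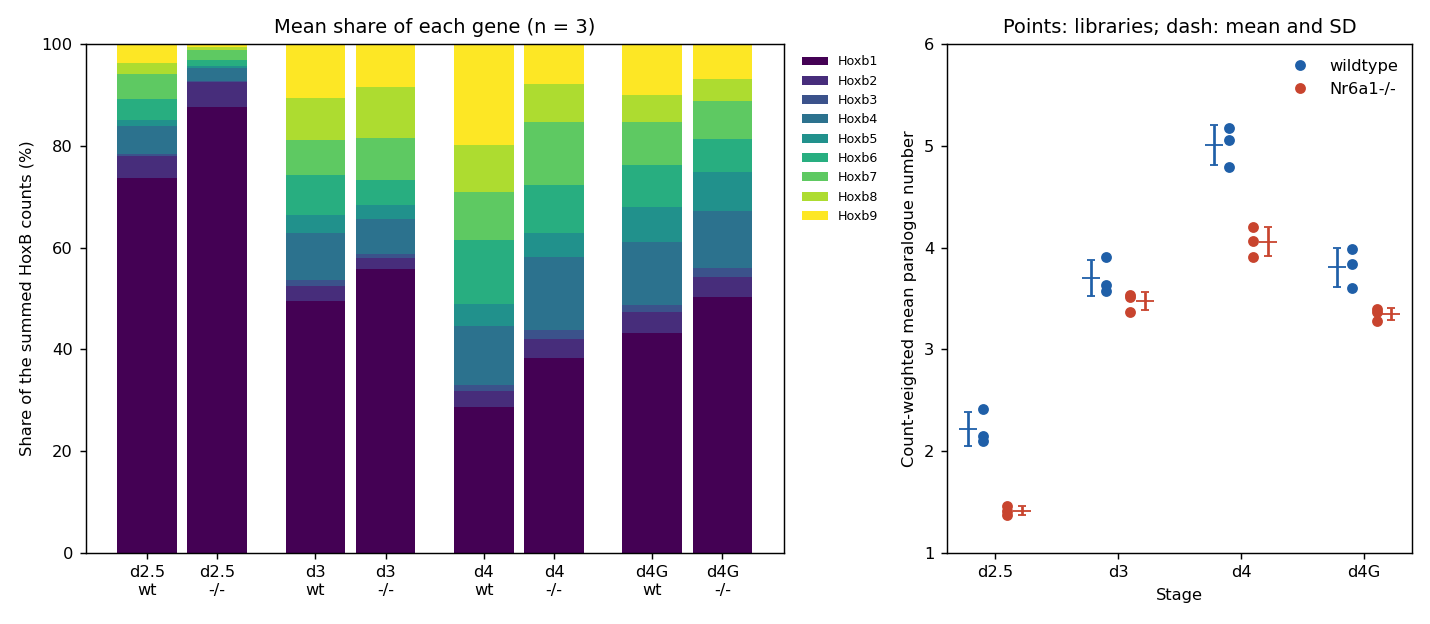
Left, mean share of each HoxB gene in the summed counts of the 9 genes for each group from d2.5 to d4G (percent, n = 3, wt for wildtype and -/- for Nr6a1-/-). Right, the mean paralogue number weighted by counts in each library (points) with the group mean and SD (dash and line). The Nr6a1-/- libraries lie below the wildtype libraries at all 4 stages, with d4 means of 4.06 and 5.01. Hoxb1 has the largest share in every group and weighs heavily in this mean.

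Over the 30 libraries the log2 levels of the 9 genes rose and fell largely together, as a description over libraries that share the same stages and depths. Pearson's r between pairs ran from 0.77 (Hoxb1 and Hoxb3) to 0.98 (Hoxb6 and Hoxb9). Hoxb1 was the least like the others, with its highest r, 0.92, to its neighbour Hoxb2 and values of 0.88 and below to the remaining 7. For Hoxb6 and Hoxb9, and for Hoxb4 with Hoxb6, another HoxB gene was the most similar of all 12149 tested genes, and the same held for Hoxb3 with Hoxb5. Among genes outside the cluster, Fzd10 and Wnt5b, a receptor and a ligand of Wnt signalling, had the patterns closest to Hoxb1 (r = 0.98 for both), and Fhl1 and Wnt5a those closest to Hoxb2 (0.96 for both). Hoxaas3, an antisense RNA of the HoxA cluster, ranked first for Hoxb6, Hoxb7, Hoxb8 and Hoxb9 (0.98 for each). Laptm4b ranked first for Hoxb3 and Hoxb5 (0.97 and 0.99) and Cited1, a transcriptional coregulator, for Hoxb4 (0.97).

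**Figure D5:**
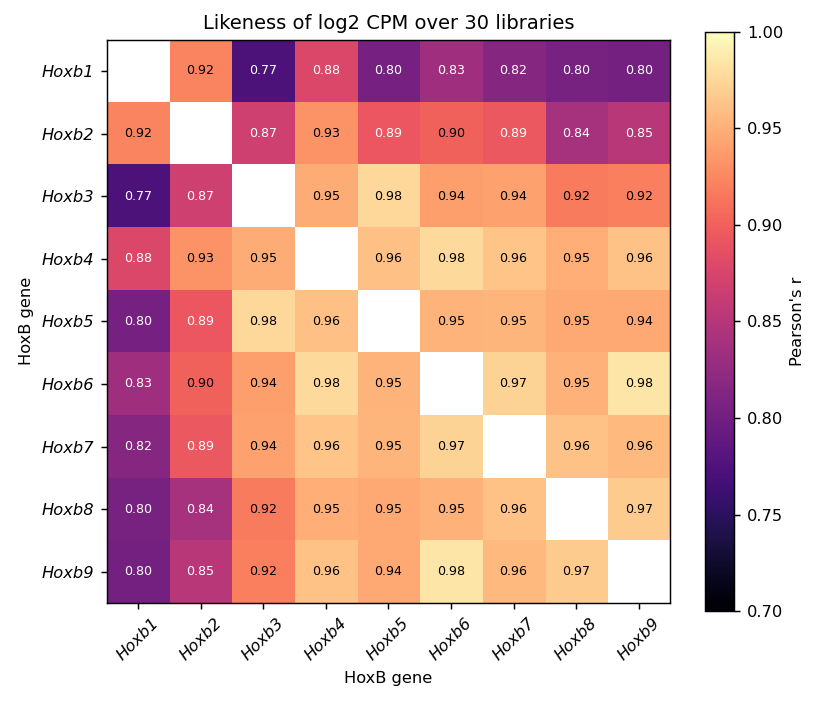
Pearson's r between the log2 CPM values of each pair of HoxB genes over 30 libraries, with lighter cells for higher r. The lowest values are those of Hoxb1, down to 0.77 with Hoxb3, and the highest is that of Hoxb6 and Hoxb9.

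The genes of the same paralogue groups in the HoxA, HoxC and HoxD clusters were set beside the HoxB genes, 18 genes of which 15 were tested. At d4, 8 of the 15 differed between genotypes, 2 higher and 6 lower, where 18.9% of all genes were called. All of Hoxa9, Hoxc9 and Hoxd9 were lower in Nr6a1-/- cells by edgeR, by 2.06, 1.78 and 1.38, beside 1.39 for Hoxb9. At d3, Hoxa7 and Hoxc8 were lower in Nr6a1-/- cells by 1.37 and 1.52 (FDR = 4.95e-04 and 3.79e-06), while Hoxb7 and Hoxb8 were higher by 0.76 and 0.81. With Gdf11, 8 of the 15 were called in wildtype cells, all higher, where 28.8% of all genes were called in either direction. Hoxa9, Hoxc9 and Hoxd9 rose there by 2.01, 2.02 and 2.63, while Hoxb9 fell by 0.73. In Nr6a1-/- cells they rose by 3.98, 2.22 and 3.23, beside 0.42 for Hoxb9. The response of Hoxa9 differed between genotypes by 1.97 (FDR = 1.98e-06), and those of Hoxc9 and Hoxd9 did not pass the threshold (0.20 and 0.59, FDR = 0.747 and 0.456). Differences between genes in these responses were not tested.

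Around the HoxB genes, 11 of 20 listed neighbours were tested, and at d4 3 of them differed between genotypes, a share not far from the 18.9% of all genes called. The antisense gene Hoxb5os, which overlaps Hoxb5 and Hoxb6, had group means of 27.8 CPM (wildtype) and 10.1 CPM (Nr6a1-/-) for d3 and of 398 and 227 CPM for d4, a difference of -1.47 at d3 (edgeR FDR = 7.37e-05) and -0.81 at d4 (FDR = 1.66e-05). Hoxb3os was higher in Nr6a1-/- cells at d4 by 0.78 (FDR = 0.00377). With Gdf11, Hoxb5os rose by 1.04 in Nr6a1-/- cells (FDR = 1.97e-07) and had a value of -0.09 in wildtype cells (FDR = 0.645), and the difference of the responses was 1.13 (FDR = 1.55e-04). Hoxb13, beyond Hoxb9 in the cluster and the third neighbour that differed at d4, had means of 0 to 0.667 CPM in wildtype groups and of 25.6, 21.6 and 145 CPM in Nr6a1-/- cells at d3, d4 and d4G. The flanking genes Cbx1, Nfe2l1, Atp5g1, Ube2z and Igf2bp1 had log2 differences of -0.06 to 0.15 at d4, with FDR values of 0.589 and above. The microRNA genes inside the cluster, Mir10a and Mir196a-1, had group means of 0.440 CPM at most.

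Of 9 genes for Pbx, Meis and Pknox proteins, the homeodomain cofactors with which Hox proteins bind DNA, 8 differed between genotypes at d4, 7 higher and 1 lower in Nr6a1-/- cells, against 18.9% of all genes. Meis2 had a mean of 66.6 CPM (wildtype) and 128 CPM (Nr6a1-/-). Of 15 tested genes of the Wnt, Cdx and retinoic acid pathways that act on Hox clusters, 9 differed at d4, 8 higher and 1 lower, against the same share. Cdx1 had 160 and 343 CPM, Cdx4, the lower one, at 129 and 51.3 CPM, and Aldh1a2, which makes retinoic acid, at 12.0 and 376 CPM. With Gdf11 the responses of 8 of these 15 genes differed between genotypes, all 8 lower in Nr6a1-/- cells, against 2.66% of all genes, while among the 9 cofactors the smallest FDR of this difference was 0.0820 (Pknox2). The part of these genes in the HoxB values was not tested.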

How the data were processed

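RNA was measured in 30 libraries, grouped by the labels. Per the study's methods, libraries were made from 3′ ends primed at the poly(A) tail, reads were aligned with STAR, and mm10 is the build in the submitters' processing notes. The counting tool, annotation, strand and collapse of molecular identifiers are not given in the sources used here. The deposited counts are whole numbers per gene and library, not normalised. The authors' per-stage tables of genotype comparisons (log2 fold changes and FDR values) were not used. Genes above 10 counts and 2 CPM in at least 2 libraries of a group were kept, scaled by TMM and fitted as 10 groups with glmQLFit and glmQLFTest (edgeR 4.0.16, R 4.3.3, 20 residual degrees of freedom), 2-sided, for 17 comparisons, each adjusted by Benjamini-Hochberg over 12149 genes. Each SE was obtained from the fold change and the F statistic. CPM values carry TMM scaling and no prior count, and likeness used log2 CPM with a prior count of 2. Pooled-count ratios have exact 95% intervals that cover counting error only. Of 30 replicate pairs, 0 were identical, with a chi-square per gene of 1.44 to 6.61. The fit was tested on simulated data. The genes, lists and tests were chosen with earlier results of these data known. Named genes are the 9 HoxB genes, members of fixed lists and the 2 most similar other genes. Alternatives were RLE factors, no factors, DESeq2 1.42.0, no filter, thinned counts, fitting only the compared groups, a replicate block and leaving out each library. Protein sequences were not analysed here. Some genes that meet the naming rule are not reported here.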

Additional observations from a re-analysis of the deposited data

Results flagged for a closer look

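The effect of stage or of Gdf11 differed between the genotypes for 2 HoxB genes in 4 tests of the difference itself (edgeR interaction, Nr6a1-/- minus wildtype, 3 libraries per group). By test, 1 of 9 genes was called for d2.5 to d3, against 0.815% of all genes, and 2 for d3 to d4, against 5.72%. For Gdf11 1 was called, against 2.66%, and for d2 to d2.5 0, against 0.609%. For Hoxb9 the step from d2.5 to d3 differed by 2.37 (FDR = 0.0491), the step from d3 to d4 by -1.58 (FDR = 1.27e-05) and the response to Gdf11 by 1.15 (FDR = 0.00127). For Hoxb8 the step from d3 to d4 differed by -1.12 (FDR = 0.0120). The steps share the d3 libraries and the last pair of Hoxb9 tests share the d4 libraries, so these are not separate observations. The summed epiblast markers of 641.6 CPM in d4 wildtype replicate 2 enter the d4 tests, which without it gave -1.66 and 1.21 for Hoxb9 and -1.17 for Hoxb8. The first Hoxb9 difference rested on 6 counts in Nr6a1-/- cells at d2.5, and its call was lost under 12 of 19 alternatives. The Hoxb8 call was lost with all libraries thinned to the smallest total (-0.87, FDR = 0.117).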

How the results depend on the processing

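Of 153 tests of a HoxB gene, 59 passed the threshold, of which 43 passed under every alternative tried and 16 were lost under at least 1, and no called value changed sign. Among tests that did not pass, 11 passed under some alternative and 28 changed sign. The number of HoxB genes called for the d2.5 to d3 genotype difference went from 1 to 0 with no normalization factors and with thinned counts and to 2 without a filter. The response to Gdf11 in Nr6a1-/- cells went from 2 to 4 genes with no normalization factors. With counts thinned to the smallest total, the d2.5 genotype comparison went from 2 genes to 1, the d3 to d4 step in Nr6a1-/- cells from 7 to 4, and its genotype difference from 2 to 1. With only the compared groups in the fit, the filter left 3 HoxB genes at d2.5 and 2 for the first step, and the counts were 1 for the d2.5 genotype comparison and 2 for the d2 to d2.5 step in each genotype. Leaving out 1 library gave 1 to 3 genes for the genotype comparison at d2.5, 1 to 3 at d4, 2 to 4 for d2 to d2.5 in Nr6a1-/- cells, 0 to 2 for the d2.5 to d3 genotype difference and 4 to 7 for d3 to d4 in Nr6a1-/- cells. Onset at 2 CPM placed 6 wildtype and 2 Nr6a1-/- genes at d2.5, against 1 and 1 at 5 CPM. At 10 CPM Hoxb3 had no onset in either genotype. Without a filter the share of all genes called fell to 6.46% at d4 from 18.9%.

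The libraries carry replicate numbers, and same-numbered libraries deviated together only weakly (median correlation of deviations 0.0114, range -0.115 to 0.163, 5 of 135 pairs above 0.1). For libraries of other numbers the median was -0.00384, the range -0.157 to 0.142, and 3 of 270 pairs lay above 0.1. For 17 of 30 libraries the mean correlation was highest with the libraries of their own number. Whether the numbers mark pairs is not settled by these values, and the main fit used no pairing. A fit with the replicate block moved 1 HoxB call, that of Hoxb2 from d2.5 to d3 in wildtype cells (1.15, FDR = 0.0545), and left 8 genes called there. It also moved the share of all genes called from 0.609% to 0.963% for the d2 to d2.5 genotype difference and from 0.815% to 1.23% for d2.5 to d3. Depth limits d2 and d2.5 most, where no HoxB gene other than Hoxb1 and Hoxb2 had more than 15 counts in a library, and no order of onset within Hoxb4 to Hoxb9 can be read from these stages.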
